A study of Mus musculus with 22 samples.

Results

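Oocyte growth without Setd2 was followed in 4 of the 22 RNA-seq libraries of the series, 2 of growing oocytes from females of postnatal day 7 (P7) and 2 of full-grown oocytes (FGO), all labelled as Setd2 knockout. The libraries were taken by their titles, and the 4 libraries of control oocytes of the same stages, 2 at P7 and 2 full-grown, were set beside them. The P7 oocytes measured 20 to 30 µm across and are labelled Setd2+/- for controls and Setd2-/- for the knockout, so the growing controls carry 1 mutant copy. The full-grown oocytes are labelled Setd2_Con and Setd2_KO with no further genotype. The collection protocol names females of 8 weeks and germinal vesicle oocytes taken 48 h after PMSG, a hormone that drives follicle growth, without naming the full-grown oocytes apart. The Cre line or allele behind the loss of Setd2 is not given in the sources used here. All libraries were made by the Smart-seq2 protocol, which amplifies full-length cDNA from very little RNA.

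SETD2 places 3 methyl groups on lysine 36 of histone H3 along the bodies of transcribed genes. The growing oocyte is known for storing the mRNA and proteins that the embryo later uses. When it is full-grown, it has largely stopped transcription and waits in the prophase of meiosis. Cells answer damage with sets of induced genes: heat shock factor drives cytosolic chaperones, the unfolded protein response enlarges the folding capacity of the endoplasmic reticulum (ER), NRF2 drives enzymes against oxidants and electrophiles, the integrated stress response slows translation, and p53 follows DNA damage. The comparison asked which of these genes changed during growth in a different way when Setd2 was lost.

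Values are FPKM, fragment counts scaled to transcript length and to the mapped fragments of the library, and changes are differences of log2(FPKM + 1), which understate the change of genes near 0. The growth change of a gene is its full-grown level minus its P7 level on that scale. The P7 and full-grown libraries came in tables that the authors normalized apart, so stage and table cannot be told apart, and growth changes are described without a test. The difference of the growth changes, knockout minus control, equals the difference of the knockout effects within each table and was tested with limma. The median over the 12312 genes tested was -0.61 for the growth change of the knockout, -0.45 for that of controls and -0.16 for the difference. All changes below are given relative to these medians, with p-values from the unshifted test. Nothing says that the replicates came from separate animals, so the spread behind each p-value may be technical, and an exact test of 2 libraries against 2 cannot go below p = 0.333.

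Setd2 itself stood at 4.33 and 6.68 FPKM in control P7 oocytes and at 3.67 and 3.21 in the knockout. In full-grown oocytes it stood at 4.75 and 4.35 FPKM in controls and at 0.968 and 0.927 in the knockout. The knockout libraries lay below the controls at both stages, by 0.51 at P7 (limma adjusted p = 0.45, in a comparison that called 0.268% of all genes) and by 1.33 in full-grown oocytes (limma adjusted p = 0.0111, with 12.2% called). The difference between the stages did not pass (-0.82 ± 0.35 SE, limma adjusted p = 0.154). FPKM over the whole gene does not show whether the remaining transcript still encodes the enzyme, and in pooled oocytes fewer cells with a transcript and less of it per cell cannot be told apart.

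The approximate depth was 5.46 to 6.28 M (mega) fragments per P7 library and 9.51 to 21.9 M per full-grown library, read from the step between low values. At least 1 FPKM was reached by 10394 to 10554 genes at P7 and by 9225 to 9982 in full-grown oocytes, and the replicates of a group correlated at a Spearman rho of 0.959 to 0.986 across genes. The 100 genes with the highest values held 21.9 to 22.3% of all FPKM at P7 and 30.6 to 35.0% in full-grown oocytes. The 8 oocyte markers summed to 3050 to 4290 FPKM at P7 and 9790 to 14200 in full-grown oocytes. The 21 markers of follicle cells (granulosa and cumulus) summed to 2.91 to 3.41 FPKM at P7, with 32.5 in knockout replicate 1, and to 39.2 to 44.9 in full-grown oocytes of both genotypes. Among these markers Inha and Fshr moved in opposite directions in full-grown oocytes, and the part of such cells in the results was not tested.

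Growth itself looked alike with and without Setd2. In the knockout, 1879 genes (15.3%) counted as risen and 1255 (10.2%) as fallen, where counting needed a change of at least 2 relative to the median and both full-grown libraries on the same side of both P7 libraries. In controls, 1743 genes (14.2%) counted as risen and 1169 (9.49%) as fallen. Across genes the growth changes of the genotypes correlated at Pearson's r = 0.932 and Spearman's rho = 0.914, where both come from the same pair of tables.

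Of 8 genes that mark the stage, 7 did not pass the test of the difference and Sycp3, described with the meiotic genes, did. Gdf9, a growth factor by which the oocyte directs its granulosa cells, went from 222 and 243 FPKM at P7 to 3132 and 5288 in full-grown knockout oocytes, and from 367 and 373 to 4918 and 4876 in controls. Bmp15, its partner, went from 5.29 and 5.88 to 622 and 806 FPKM in the knockout, a growth change of 7.36 against 6.89 in controls. H1foo, the linker histone of oocytes, changed by 5.45 and 5.28, and Zp3, of the egg coat, by 3.03 and 2.56. Dnmt3l, the cofactor of DNA methylation in oocytes, was listed at 0 in all 4 P7 libraries and reached 78.7 and 97.7 FPKM in full-grown knockout oocytes against 107 and 118 in controls. The limma adjusted p was 0.464, 0.477, 0.989, 0.545 and 0.5 for these 5, in that order. Nlrp5, of the subcortical maternal complex, was at 605 and 831 FPKM in the full-grown knockout and 505 and 479 in controls, with growth changes of 1.83 and 0.75 (limma adjusted p = 0.351). Kit, the receptor through which granulosa cells drive oocyte growth, was at 94.6 and 97.1 FPKM in knockout and 89.5 and 103 in control P7 oocytes and at 19.8 and 25.2 against 37.9 and 40.9 in full-grown oocytes, with growth changes of -1.45 and -0.82 (limma adjusted p = 0.107).

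The largest rises of the knockout were of oocyte genes, most of them from families whose near-identical copies leave the counts of each member uncertain. Oog3 led them with 11.57 and is described with the largest differences. Obox1 and Obox2, homeobox genes of the oocyte, went from at most 0.335 FPKM at P7 to 987 and 1009.5 and to 881 and 820.5 FPKM, growth changes of 10.37 and 10.25 against 9.65 and 9.24 in controls. Fbxw28, Fbxw14 and Fbxw19, F-box genes of the oocyte, changed by 10.16, 10.08 and 9.84, Obox5 by 10.07, and Plac8 by 10.21 against 10.59 in controls. Among these 8 genes Oog3 alone passed the test of the difference.

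The largest falls included the early oocyte factor Sohlh1, which went from 360.4 and 441 FPKM at P7 to 0.19 and 0.202 in full-grown knockout oocytes (growth change -7.78, against -8.12 in controls). Maged1 changed by -6.98, Crabp1, a carrier of retinoic acid, by -6.88, Malat1, a nuclear noncoding RNA, by -6.00, and Ptgds by -5.98. The other falls of that size were genes of the synaptonemal complex and of cohesin, which come with the meiotic genes below.

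**Figure D1:**
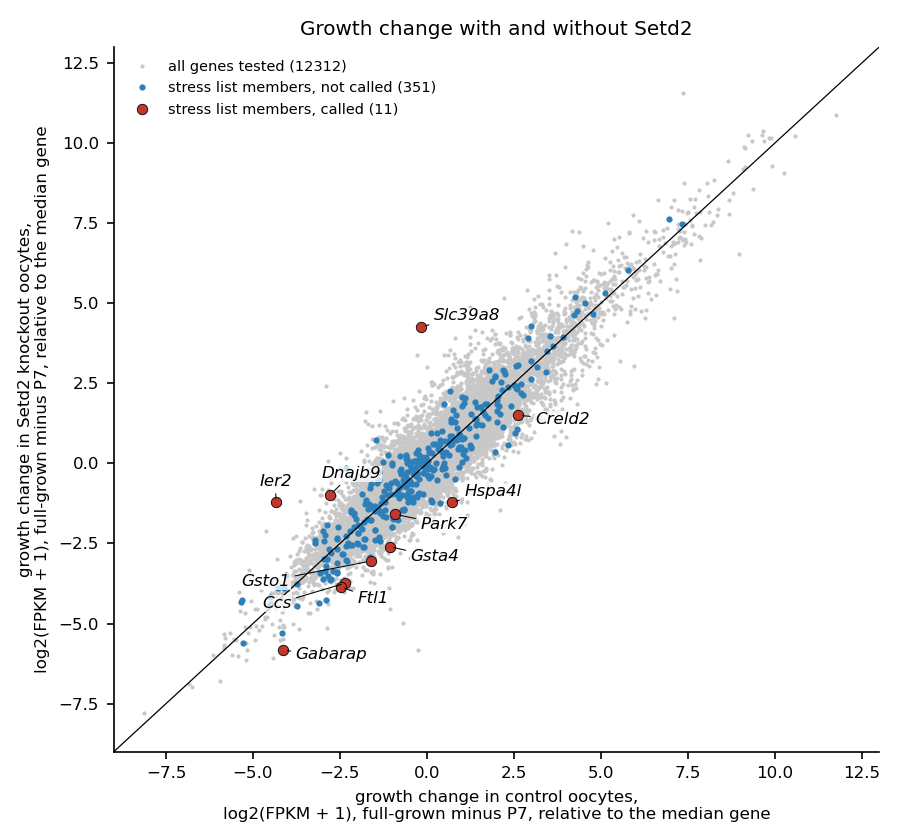
Growth change (full-grown minus P7, log2(FPKM + 1), relative to the median gene) in control oocytes on the x axis and in Setd2 knockout oocytes on the y axis, with 1 point per gene and the line of equal change. Most genes lie along the line, and of the 362 stress genes the 11 called are drawn in red, with Slc39a8, Ier2 and Dnajb9 above the line and the other 8 below it.

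Between the genotypes, 281 of 12312 genes (2.28%) differed in their growth change, 94 (0.763%) with the knockout above the control and 187 (1.52%) below it. At an unadjusted p under 0.05 there were 2742, of which 853 lay above and 1889 below. Rescaling the libraries by median ratios gave 290 above and 184 below, so that 61.2% of calls lay above in place of 33.5%, and quantile normalization gave 203 and 172 (54.1% above). Without any 1 of the full-grown libraries almost no call remained, but such a fit has fewer samples and leaves 1 library in a group. How much of that loss came from the library left out was not tested. Leaving out P7 libraries gave 46 and 65 (control replicate 1), 10 and 13 (control replicate 2), 34 and 43 (knockout replicate 1) and 40 and 46 (knockout replicate 2). Of the 281 genes, every one measured kept its direction in each of these fits and in the other settings tried, while the calls did not hold. These genes were called on the same libraries, so the kept direction adds no support.

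The called genes were divided, without a further test, by their growth change in controls, with 1 in either direction as the border. Of the 94 above, 34 stayed near the median in controls and rose in the knockout, 32 rose in both and more in the knockout, and 20 fell in controls and stayed near the median in the knockout. Of the 187 below, 51 fell in both and further in the knockout, 50 were near the median in controls and fell in the knockout, 37 rose in both but less in the knockout, and 33 rose in controls and stayed near the median in the knockout. A full change of side was less frequent: 4 genes fell in controls and rose in the knockout, Prpf39, Arntl2, Lmo4 and Emc2, and 3 rose in controls and fell in the knockout, Dbt, Bglap and Fam211a. Lmo4, Emc2 and Fam211a were named after their values were seen. The genes called had a median longest transcript of 2295 nt above and 2052 nt below, against 3177 nt over all genes with a length, and a median level of 13.6 and 28.2 FPKM against 8.16.

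Among stress genes the differences were few and lay in single members. Of 422 genes in 12 stress lists, 421 were in the tables and 362 passed the filter of 1 FPKM in 2 libraries. The test called 3 above and 8 below, 3.04% against 2.28% of all genes. Slc39a8, 1 of the 3, passed the filter only through the full-grown knockout and had to differ, so its call adds nothing to this share. The median difference of the 362 was -0.01, and their median growth change was -0.31 in the knockout and -0.36 in controls. In the knockout 43 counted as risen and 67 as fallen during growth, against 1879 and 1255 of all 12312 genes. In controls 47 and 62 did, against 1743 and 1169 of all genes. At an unadjusted p under 0.05 there were 16 of the 362 above and 60 below, against 853 and 1889 of all 12312 genes. The members above were Slc39a8, Ier2 and Dnajb9, and those below Hspa4l, Gabarap, Gsta4, Gsto1, Ccs, Ftl1, Creld2 and Park7. The 11 calls were lost without any 1 full-grown library, in fits that leave 1 library in a group. All kept their direction where they were measured, which adds no support, as they were called on these same libraries.

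**Figure D2:**
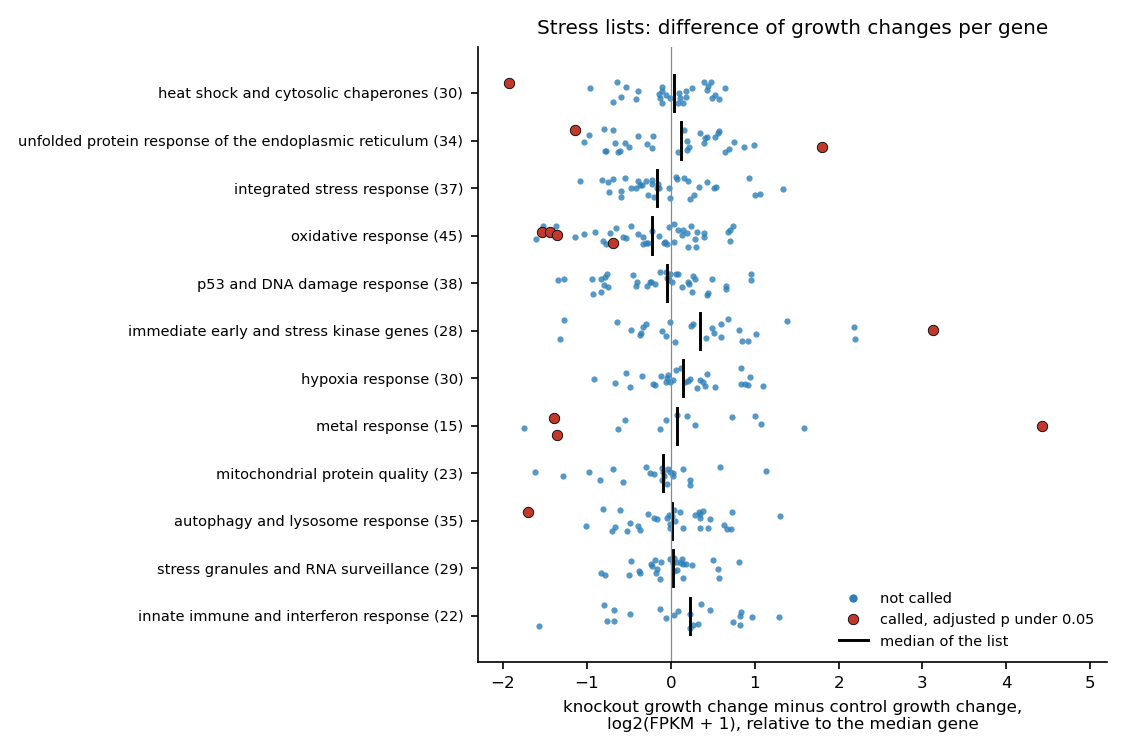
Difference of growth changes (knockout minus control, log2(FPKM + 1), relative to the median gene) on the x axis for each member of the 12 stress lists, which are the rows, with the number of tested members in brackets and a bar at the list's median. The medians lie between -0.23 (oxidative response) and 0.34 (immediate early genes), and the called members are in red, Ftl1 in both the oxidative and the metal list.

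The unfolded protein response held called members in both directions, Dnajb9 above and Creld2 below. Both are classical ER stress genes, and the 250 bases before their start sites are shown because the letters that the ER stress factors are known to read can be seen in them. Sequences are from RefSeq on GRCm38.p6, written in the direction of the gene, and capitals mark matches to CCACG, to CCAAT and to the full ER stress response element (CCAAT, then 9 bases of any kind, then CCACG) on either strand.
Creld2 (chr15:88819396-88819645, plus strand): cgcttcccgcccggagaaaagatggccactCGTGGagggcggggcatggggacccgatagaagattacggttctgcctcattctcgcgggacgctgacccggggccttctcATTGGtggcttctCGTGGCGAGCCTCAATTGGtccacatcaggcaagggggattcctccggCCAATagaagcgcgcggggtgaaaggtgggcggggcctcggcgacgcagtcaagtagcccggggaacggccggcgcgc
Dnajb9 (chr12:44210069-44210318, minus strand): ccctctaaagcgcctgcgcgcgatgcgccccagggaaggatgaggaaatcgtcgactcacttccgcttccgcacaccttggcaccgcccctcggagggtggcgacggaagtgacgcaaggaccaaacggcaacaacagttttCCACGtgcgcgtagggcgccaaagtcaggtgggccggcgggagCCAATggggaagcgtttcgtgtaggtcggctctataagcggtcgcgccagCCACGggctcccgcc

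The Creld2 window holds the full element on the opposite strand, 126 to 108 bases before the start, where it overlaps matches to both of its parts. The Dnajb9 window holds CCACG at 108 to 104 and at 15 to 11 bases before the start and CCAAT at 65 to 61, but not the full element. Of all 32851 promoter windows in the table, 28.3% hold CCACG, 33.8% CCAAT and 0.113% the full element, and of the 11573 windows of genes tested 41.2%, 35.9% and 0.164%. Among the 27 windows of the unfolded protein response list (26 genes matched) 9 (33.3%) hold the full element. Of the 9 genes with it, 5 had a difference below the median of all genes, as had 11 of the other 25 members. Creld2 alone of the 9 was called. The full element was searched after the values were seen.

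Dnajb9, an ER chaperone that works with BiP, was at 96.5 and 105 FPKM in control and at 89.7 and 88.1 in knockout P7 oocytes. In full-grown oocytes it was at 8.22 and 11.5 FPKM in controls and at 25 and 32.8 in the knockout. The P7 groups lay close together and the full-grown groups did not overlap, so the fall during growth was smaller without Setd2, with growth changes of -0.99 against -2.79. The difference was 1.80 ± 0.29 (SE, limma adjusted p = 0.0355).

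Creld2, an ER protein induced by misfolding, was at 73 and 71.7 FPKM in control and 91.8 and 67.1 in knockout P7 oocytes, which overlap. It reached 353 and 314 FPKM in full-grown controls and 132 and 162 in the full-grown knockout. Both genotypes ended above their P7 level, the knockout less so, with growth changes of 1.50 and 2.63 and a difference of -1.14 ± 0.25 (limma adjusted p = 0.0447). Of 10 settings other than leaving out a library, 3 kept the Creld2 call and 7 lost it, both rescalings of the libraries included.

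The 34 members of the unfolded protein response had a median difference of 0.12, and 32 of them did not pass (5.88% called, against 2.28% of all genes). At an unadjusted p under 0.05 the list had 1 member above and 10 below, against 853 and 1889 of all 12312 genes. Hspa5, which encodes BiP, was at 125 and 161 FPKM in full-grown controls and 72 and 158 in the knockout, which overlap (difference -0.23, limma adjusted p = 0.666). Xbp1, a transcription factor of the response, went from 90.9 and 125 FPKM at P7 to 0.834 and 5.63 in the full-grown knockout and from 137 and 145 to 1.16 and 2.12 in controls. Hspa5 and Xbp1, like the other stress genes below for which no call is given, were picked as textbook members and not by the rule for named genes.

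Among 30 heat shock genes and cytosolic chaperones, 0 were called above and 1 below (3.33%, against 2.28% of all genes). The median difference was 0.03. Hspa4l, a chaperone that recharges HSP70 proteins, was at 9.33 and 12.8 FPKM in control and 16.5 and 14.6 in knockout P7 oocytes. It was at 13.9 and 13 FPKM in full-grown controls and 2.95 and 4.58 in the knockout. Above the controls at P7 and below them when full-grown, the knockout had a growth change of -1.21 where controls had 0.72, a difference of -1.93 ± 0.35 (limma adjusted p = 0.0326).

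The other heat shock genes followed the controls more closely. Hsf1, the heat shock transcription factor, went from 38.4 and 32.3 FPKM to 55.9 and 68.4 in the knockout and from 37.7 and 40.2 to 74.7 and 79.4 in controls (difference -0.01, limma adjusted p = 0.712). Dnajb1, an HSP70 partner and a target of that factor, had growth changes of 3.06 and 2.62, and Hsp90ab1, an abundant chaperone, of -2.82 and -2.40. Hspa8, the constitutive HSP70, was at 504 and 537 FPKM in the full-grown knockout and 351 and 309 in controls, and its difference of 0.65 did not pass (limma adjusted p = 0.153).

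The oxidative response had the most calls of a stress list, 4 of 45 members (8.89%, against 2.28% of all genes), all below the control. At an unadjusted p under 0.05 it had 13 members below and 1 above, against 1889 and 853 of all 12312 genes. The list's median difference was -0.23, with median growth changes of -0.63 in the knockout and -0.56 in controls. Its called members are 2 glutathione transferases, a ferritin chain and a redox-sensitive protein.

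Gsta4, a glutathione transferase that clears products of lipid peroxidation, was at 556 and 652 FPKM in control and 594 and 583 in knockout P7 oocytes. It was at 213 and 205 FPKM in full-grown controls and at 61.6 and 63.7 in the knockout. P7 values overlapped and full-grown values lay well apart, with growth changes of -2.60 and -1.07 and a difference of -1.53 ± 0.17 (limma adjusted p = 0.0153). The call held without each of the 4 P7 libraries in turn, unlike that of any other stress gene.

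Gsto1, a transferase of the omega class, was at 21.3 and 19.2 FPKM in control and 26.5 and 27.3 in knockout P7 oocytes, and at 3.98 and 4.14 against 1.35 and 1.07 in full-grown oocytes. The knockout thus lay above the control at P7 and below it when full-grown. Its growth changes were -3.05 and -1.62, a difference of -1.44 ± 0.28 (limma adjusted p = 0.0355).

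Ftl1, the light chain of the iron store ferritin, was at 506 and 490.2 FPKM in control P7 oocytes and 410.1 and 449.8 in the knockout. Full-grown oocytes held 52.8 and 78.7 FPKM in controls and 18 and 19.3 in the knockout. The knockout was the lower at both stages and by more in full-grown oocytes, a difference of -1.36 ± 0.26 (limma adjusted p = 0.0355). Fth1, the heavy chain, had growth changes of -0.37 and -0.67 and did not pass (limma adjusted p = 0.663). Both chains have close genomic copies, so their reads may be divided.

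Park7, which encodes the redox-sensitive protein DJ-1, had the smallest difference of the 11. It was at 441 and 442 FPKM in control and 462 and 484 in knockout P7 oocytes, and at 175 and 169 against 98.5 and 106 in full-grown oocytes. The groups did not overlap at either stage and changed order between them, with a difference of -0.69 ± 0.16 (limma adjusted p = 0.0406). The Park7 call was lost under both rescalings of the libraries.

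Sod1, the superoxide dismutase that is the most abundant stress transcript at P7, was at 13848 and 12841 FPKM in control and 11725 and 12949 in knockout P7 oocytes and at 1199.6 and 912 against 1455 and 1436 in full-grown oocytes. Its difference of 0.74 did not pass (limma adjusted p = 0.129). Gstp1, another glutathione transferase, with a near-identical neighbour, was at 88 and 85.7 FPKM in full-grown controls and 7.89 and 13.7 in the knockout, but was also lower at P7 (34 and 25.9 against 9.81 and 16.2), and its difference of -1.61 missed the threshold (limma adjusted p = 0.0671). Nfe2l2, which encodes NRF2, was at 12.9 and 9.84 FPKM in full-grown controls and 7.81 and 10.2 in the knockout, which overlap.

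Of 15 metal response genes 1 was called above and 2 below (20.0%, against 2.28% of all genes), with a median difference of 0.07. The call above, of Slc39a8, was fixed by the filter, as described below, so the 20.0% is a description. Ftl1, described above, is 1 of the 2 called below. Ccs, the chaperone that hands copper to SOD1, was at 99.1 and 89.5 FPKM in control and 130.2 and 104 in knockout P7 oocytes. Full-grown oocytes held 13.5 and 12 FPKM in controls and 4.95 and 4.63 in the knockout, again with the order of the genotypes turned between stages. The difference was -1.39 ± 0.25 (limma adjusted p = 0.0324).

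Slc39a8, a transporter that brings zinc, manganese and cadmium into the cell, was the stress gene with the largest difference. It lay below 1 FPKM in all 6 libraries other than those of the full-grown knockout: 0.864 and 0.329 in control P7 oocytes, 0 and 0.166 in knockout P7 oocytes, and 0.0396 and 0.0315 in full-grown controls. The full-grown knockout libraries held 22 and 7.07 FPKM. The growth change was 4.27 in the knockout and -0.16 in controls, a difference of 4.42 ± 0.63 that was 2.06 with a pseudocount of 5 FPKM and 8.75 with 0.1. The gene passed the filter only through the full-grown knockout, so it had to differ, and its call is given as a description. The call was lost without each of the 6 other libraries in turn.

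The window before the first of 2 RefSeq start sites of Slc39a8 is shown for its stress motifs, with capitals for TTCNNGAA overlapping GAANNTTC and for TGACNNNGC, on either strand.
Slc39a8 (chr3:135825029-135825278, plus strand): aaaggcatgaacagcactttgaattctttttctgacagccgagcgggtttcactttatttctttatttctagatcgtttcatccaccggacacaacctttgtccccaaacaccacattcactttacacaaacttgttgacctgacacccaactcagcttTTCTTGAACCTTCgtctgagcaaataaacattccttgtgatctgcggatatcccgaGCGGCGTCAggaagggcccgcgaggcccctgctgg

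The first run of capitals joins 2 overlapping pairs of heat shock units, at 91 to 84 and 86 to 79 bases before the start. Such a run of 3 units is in 0.466% of all windows and 0.363% of those of genes tested. The run was searched after the values were seen, and the window before the second start site holds no match to these motifs. TGACNNNGC, the core of the antioxidant response element, matches on the opposite strand at 35 to 27 bases. It is in 10.2% of all windows and 11.9% of those of genes tested. Both are matches of letters, and no binding was measured.

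A zinc exporter and a metal buffer are set beside it. Slc30a1, which exports zinc, was at 3.79 and 3.46 FPKM in the full-grown knockout and 1.72 and 2.05 in controls, with a difference of 1.59 that did not pass (limma adjusted p = 0.1). Mt1, a metallothionein that binds zinc, stayed under 6 FPKM in every library and ranged from 0 to 1.28 in the full-grown knockout.

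The immediate early and stress kinase genes had the highest median difference of the lists, 0.34 over 28 members. Limma called 1 above and 0 below (3.57%, against 2.28% of all genes). At an unadjusted p under 0.05, 4 lay above and 2 below, against 853 and 1889 of all 12312 genes. Ier2, an immediate early gene that growth signals and stress induce, was at 70.2 and 49.3 FPKM in control P7 oocytes and 22.3 and 13 in the knockout. In full-grown oocytes it was at 0.776 and 1.64 FPKM in controls and 2.96 and 5.51 in the knockout. The order of the genotypes turned between the stages, with knockout effects of -1.71 at P7 and 1.41 in full-grown oocytes. The difference was 3.12 ± 0.52 (limma adjusted p = 0.0355).

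Its classical relatives spread between replicates. Egr1 was at 5.11 and 0.829 FPKM in knockout and 18.8 and 12.1 in control P7 oocytes, with full-grown groups that overlapped, and its difference of 2.19 did not pass (limma adjusted p = 0.15). Fos was at 8.91 and 0.18 FPKM in the knockout P7 libraries, so that its replicates lay far apart.

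Autophagy and lysosome genes had a median difference of 0.01 over 35 members. Limma called 0 above and 1 below (2.86%, against 2.28% of all genes). Gabarap, a protein that coats the growing autophagosome, was at 233 and 239 FPKM in control and 219.9 and 223 in knockout P7 oocytes. In full-grown oocytes it was at 8.25 and 9.61 FPKM in controls and 1.13 and 2.07 in the knockout. It ended far below its P7 level in both genotypes and further so in the knockout, with growth changes of -5.84 against -4.13 and a difference of -1.70 ± 0.28 (limma adjusted p = 0.0317). Becn1, which starts autophagosomes, was at 12.5 and 16.3 FPKM in the full-grown knockout against 32.8 and 30.6 (difference -1.01, limma adjusted p = 0.0541), and Map1lc3b, a relative of Gabarap, had growth changes of -1.43 and -1.42.

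**Figure D3:**
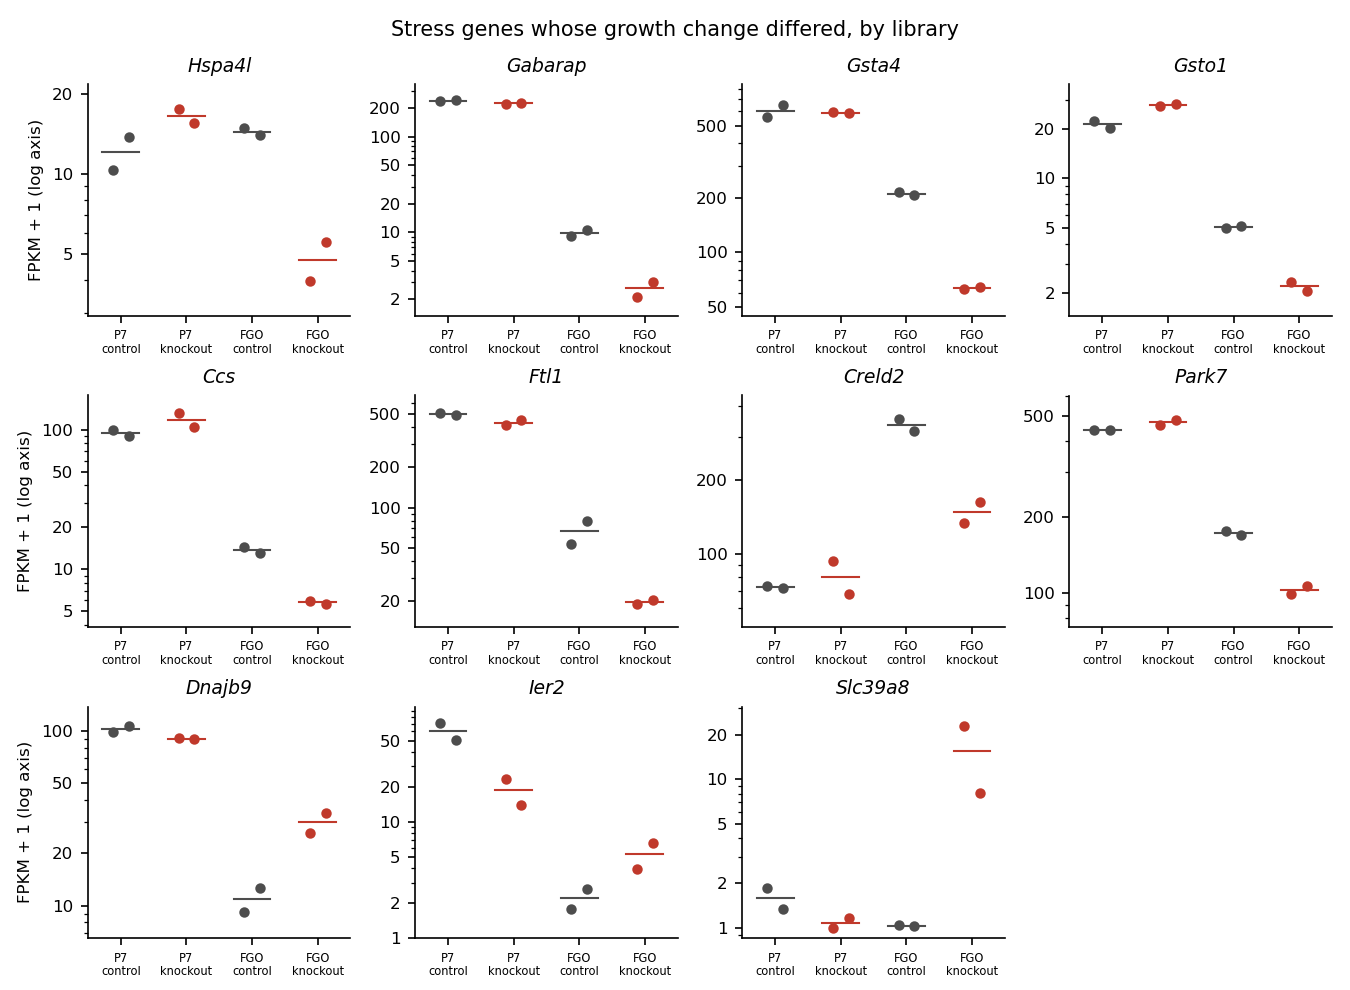
FPKM + 1 on a log axis in each library for the 11 stress genes called, with control oocytes in grey and Setd2 knockout oocytes in red at P7 and full-grown (FGO), 2 libraries a group, and a line at the mean. The full-grown groups lie apart in all 11 panels, as for Gsta4 (205 and 213 against 61.6 and 63.7 FPKM). As the genes were called on these same values, this adds no support. The P7 groups overlap for Gsta4 and Creld2 alone. For Ier2, Hspa4l, Gsto1, Ccs, Park7, Dnajb9 and Slc39a8 the order of the genotypes turns between the stages, for Slc39a8 from P7 values below 1 FPKM.

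In 6 further stress lists limma called 0 genes in either direction, and the counts at an unadjusted p below stand against 853 above and 1889 below among all 12312 genes. The integrated stress response (37 members, median -0.17) had 2 above and 1 below at an unadjusted p under 0.05. Its smallest p-values were of Eprs, a tRNA synthetase, at 9.81 and 9.99 FPKM in the full-grown knockout against 16.1 and 18.5 (difference -0.75, limma adjusted p = 0.0714), and of Phgdh, of serine synthesis, with a difference of 0.93 (limma adjusted p = 0.114). Ddit3, the stress factor CHOP, reached 181 and 165 FPKM in the full-grown knockout and 129 and 123 in controls from 13.2 to 31.5 at P7, a difference of 1.00 that did not pass (limma adjusted p = 0.318).

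The p53 and DNA damage response (38 members, median -0.05) had 2 above and 4 below at that unadjusted p, and growth medians of -1.22 in the knockout and -0.76 in controls. Bax, which opens mitochondria in cell death, was at 3.77 and 2.43 FPKM in the full-grown knockout and 8.07 and 15 in controls, from 121 to 161 at P7 in all 4 libraries (difference -1.27, limma adjusted p = 0.101). Chek2, a kinase of the checkpoint that removes damaged oocytes, had growth changes of -3.41 and -2.58 (limma adjusted p = 0.129). Cdkn1a, the p53 target p21, went from 34.9 and 37.6 FPKM to 0.24 and 0.0849 in the knockout and from 40.4 and 35.5 to 0.143 and 0.343 in controls, and Trp63, the p53 relative of oocytes, had growth changes of -1.17 and -1.23.

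Hypoxia genes (30 members, median 0.15) had 0 above and 3 below at that p, a smaller share below than among all genes, with Pdk1 at a difference of -0.91 and the glycolytic Pgk1 at -0.54 (limma adjusted p = 0.148 and 0.179). Mitochondrial protein quality (23 members, median -0.09) had 0 above and 6 below. There the chaperonin pair Hspe1 and Hspd1 stood at 68.3 and 86.9 and at 4.43 and 5.67 FPKM in the full-grown knockout against 131 and 176 and 10.1 and 12.6 in controls, differences of -0.98 and -0.85 that missed the threshold (limma adjusted p = 0.0606 and 0.0856).

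Stress granules and RNA surveillance (29 members, median 0.03) had 0 above and 4 below. Smg1 and Upf1, the kinase and helicase of nonsense-mediated decay, had differences of -0.79 and -0.83 (limma adjusted p = 0.117 and 0.126). Innate immune genes (22 of 40 tested, median 0.23) had 1 above and 3 below. Ddx58, the RNA sensor RIG-I, came nearest to the threshold of any stress gene not called, at 1.3 and 1.52 FPKM in the full-grown knockout against 7.56 and 8.45 in controls with P7 levels of 0.681 to 1.53 (difference -1.57, limma adjusted p = 0.0525), and Oasl1 had a difference of 1.29 (limma adjusted p = 0.0896).

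Meiotic prophase genes, which the growing oocyte switches off, had 0 of 27 members called above and 5 below (18.5%, against 2.28% of all genes), with a median difference of -0.31. These are Hormad1, Tex15, Sycp3, Smc1b and Tex11, and in all of them the fall during growth went further without Setd2. Hormad1, which sits on the axes of meiotic chromosomes, had the largest difference below of all named genes. It was at 38.2 and 45.3 FPKM in control and 58.9 and 56.4 in knockout P7 oocytes, and at 22.8 and 14.9 FPKM against 0.314 and 0.111 in full-grown oocytes. The knockout was the higher at P7 and nearly lost the transcript by the end of growth, with growth changes of -4.99 and -0.68 and a difference of -4.31 ± 0.33 (limma adjusted p = 0.00917). The Hormad1 call was also made without full-grown control replicate 2, without full-grown knockout replicate 2 and with the replicate block.

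Tex15, needed for repair of meiotic breaks, was at 76.8 and 73.8 FPKM in knockout P7 oocytes and 0.37 and 0.499 in the full-grown knockout, against 59.4 and 65.7 and then 6.67 and 4.3 in controls (difference -2.26 ± 0.31, limma adjusted p = 0.0223). Sycp3, of the lateral element of the synaptonemal complex, went from 606 and 576 to 5.01 and 4.49 FPKM in the knockout and from 575 and 520.5 to 15.7 and 19.9 in controls (difference -1.65 ± 0.22, limma adjusted p = 0.0219). Smc1b, the meiotic cohesin subunit, ended at 1.24 and 1.41 FPKM against 3.17 and 3.17 (difference -0.94 ± 0.22, limma adjusted p = 0.0466). Syce1, of the central element, ended at 0.204 and 0.289 against 1.86 and 1.56 and missed the threshold (difference -0.84, limma adjusted p = 0.0691).

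Of 36 genes of meiotic arrest and maturation, 2 were called above and 1 below (8.33%, against 2.28% of all genes). The B cyclins, which activate the kinase that resumes meiosis, differed in opposite ways. Ccnb1 was at 63.5 and 65.1 FPKM in knockout and 72.2 and 78 in control P7 oocytes, and at 688 and 699 against 403 and 316 in full-grown oocytes (difference 1.34 ± 0.20, limma adjusted p = 0.0355). Ccnb2 was at 91.3 and 89.4 FPKM in knockout and 41.4 and 37.9 in control P7 oocytes, while the full-grown groups overlapped at 266 and 274 against 279 and 251. Its difference of -0.98 ± 0.18 (limma adjusted p = 0.0318) was thus carried by the P7 stage, and the call was lost after median-ratio rescaling. Ccne2, a cyclin of the start of DNA replication, was at 84.8 and 76.1 FPKM in the full-grown knockout and 24.9 and 19.7 in controls, with overlapping P7 groups (difference 1.91 ± 0.32, limma adjusted p = 0.0398).

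Of 41 genes in a list of oocyte transcription factors, secreted factors and other oocyte genes, 0 were called above and 2 below (4.88%, against 2.28% of all genes). The 2 called are neither transcription factors nor secreted factors. The growth medians of the list were 3.03 in the knockout and 2.83 in controls. Zar1, which binds stored mRNA, went from 38.5 and 42.4 FPKM to 603 and 924 in the knockout and from 24.5 and 30.3 to 1377 and 1945 in controls (difference -1.52 ± 0.34, limma adjusted p = 0.0466). Khdc3, of the subcortical maternal complex, went from 20.5 and 21.5 to 329 and 463 FPKM in the knockout and from 20.3 and 21.8 to 975 and 894 in controls (difference -1.09 ± 0.25, limma adjusted p = 0.045). Both accumulated in each genotype and less without Setd2.

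**Figure D4:**
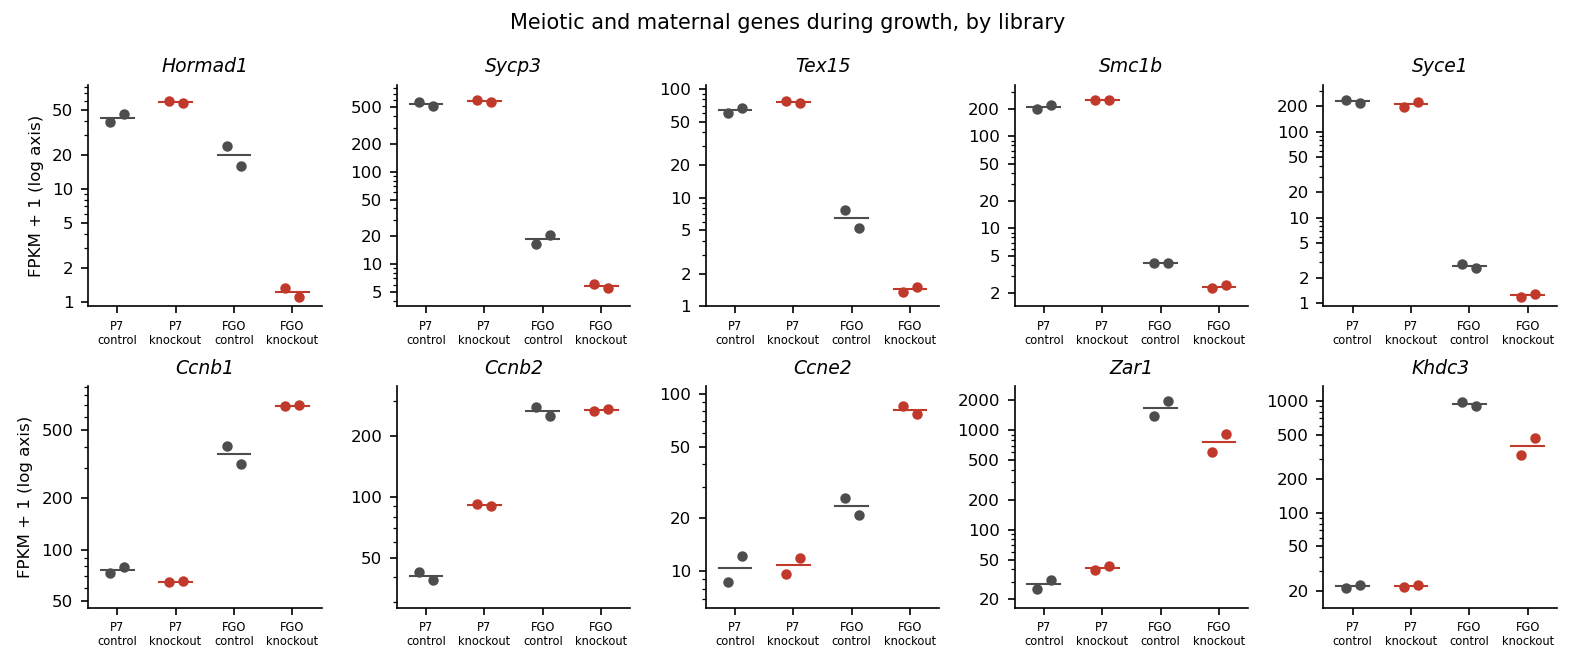
FPKM + 1 on a log axis in each library for 5 meiotic genes (upper row) and for 3 cyclins and 2 maternal genes (lower row), with control oocytes in grey and Setd2 knockout oocytes in red at P7 and full-grown (FGO), and a line at the mean. The meiotic genes end lower in the full-grown knockout, as Hormad1 at 0.314 and 0.111 FPKM against 22.8 and 14.9, Ccnb1 and Ccne2 end higher, Ccnb2 differs at P7, and Syce1 was not called.

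Other growth lists had few calls, where 1.52% of all genes were called below and 1889 of 12312 lay below at an unadjusted p under 0.05. Oxidative phosphorylation had 0 above and 4 below of 78 (28 below at an unadjusted p under 0.05, median -0.24), all complex I subunits: Ndufs6 (-1.22), Ndufa7 (-0.97), Ndufs7 (-0.89) and Ndufs8, with limma adjusted p = 0.0324, 0.0326 and 0.0324 for the first 3, none of which was called after median-ratio rescaling. Ribosomal proteins, many of which have close copies, had 0 above and 1 below of 79 (22 below at an unadjusted p under 0.05, median -0.31), Rps25 with a difference of -1.14 (limma adjusted p = 0.0366), which was not called after either rescaling. Among 25 genes of methylation at the SETD2 residue and its readers, Setmar alone was called, at 4.08 and 6.48 FPKM in knockout and 0.627 and 0.834 in control P7 oocytes with full-grown groups that overlapped (difference -1.77, limma adjusted p = 0.0406), and not after either rescaling. Limma called 0 of 17 DNA methylation genes (0 above and 4 below at an unadjusted p under 0.05) and 0 of 36 proteasome genes (2 and 8).

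The largest differences above, besides Slc39a8 and Ier2, were of genes with varied roles. Oog3, of the PRAME family of oocyte genes, was listed at 0 in both knockout P7 libraries and at 5.28 and 7.86 FPKM in controls, and then reached 2435 and 1637 FPKM in the full-grown knockout against 997 and 793 (difference 4.23 ± 0.34, limma adjusted p = 0.012). Its difference rests on the pseudocount, with 2.45 to 7.44 over the settings tried, and its reads may be shared with close copies. Prpf39, a splicing factor, was at 45.9 and 40.8 FPKM in the full-grown knockout and 4.15 and 3.38 in controls, with P7 groups that overlap at 16.9 to 25.7 (difference 3.35 ± 0.33, limma adjusted p = 0.0153).

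Nmnat3, which makes NAD in mitochondria, went from 37.1 and 34 to 0.167 and 0.498 FPKM in controls but from 8.28 and 17.1 to 4.04 and 4.61 in the knockout (difference 3.66, limma adjusted p = 0.0223). Fshr, the receptor for FSH, was listed at 0 in all 4 P7 libraries and stood at 9.49 and 8.25 FPKM in the full-grown knockout against 0.415 and 0.18 in controls. It passed the filter only through the full-grown knockout, so its difference of 3.09 is a description. Ccbl2, an aminotransferase of kynurenine, was at 107 and 95.2 FPKM in the full-grown knockout and 21.2 and 14.6 in controls (difference 2.93, limma adjusted p = 0.0164). Arntl2, a paralog of the clock factor BMAL1, and Gdpd3, a phosphodiesterase of phospholipids, had differences of 2.97 and 2.95 (limma adjusted p = 0.0324 and 0.0283). Gdpd3 was at most at 0.389 FPKM at P7, so its difference depends on the pseudocount, with 1.92 to 4.24 over the settings tried. The Gdpd3 call was lost with a pseudocount of 0.1 FPKM. Cpox, of heme synthesis, went from 4.71 and 7.52 to 58.8 and 46.3 FPKM in the knockout and from 4.81 and 5.37 to 7.15 and 5 in controls (difference 2.89, limma adjusted p = 0.0265).

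Below Hormad1, the largest differences below were of Dbt, a subunit of the complex that breaks down branched-chain keto acids, at 0.461 and 0.514 FPKM in the full-grown knockout and 20.9 and 13.9 in controls (difference -3.59 ± 0.51, limma adjusted p = 0.0259). Lage3, of the complex that modifies adenosine in tRNA, was at 6.33 and 8.24 FPKM against 55.5 and 46.2 (difference -2.80, limma adjusted p = 0.0153). Alad, of heme synthesis, was at 1.89 and 2.61 FPKM against 16.7 and 18.8, with 17.1 to 23.9 at P7 (difference -2.63, limma adjusted p = 0.0164). Xlr5c, whose reads may be shared with its close relatives, was at 0.563 and 0.374 FPKM against 13.3 and 12.6 (difference -3.18, limma adjusted p = 0.0442). For these 4 genes the knockout effect at P7 was 0.17, 0.33, 0.27 and 0.11, and the full-grown groups did not overlap. Being named required groups apart at P7 or when full-grown.

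For the other 5 the knockout was the higher at P7. Tmem116 was at 12.3 and 10.8 FPKM in knockout and 1.82 and 0.87 in control P7 oocytes, and at 14.2 and 17.2 against 24.6 and 21.9 in full-grown oocytes (difference -2.83, limma adjusted p = 0.0172). Mtfr2, a regulator of mitochondrial fission, was at 31.2 and 43.6 FPKM against 10.3 and 16.2 at P7 and at 13 and 10.2 against 34.1 and 53.1 when full-grown (difference -3.08, limma adjusted p = 0.0223), so the order of the genotypes turned. Rgs10, an inhibitor of G protein signals, had a difference of -2.57 (limma adjusted p = 0.0324). Its control P7 libraries held 0.879 and 0 FPKM, so this difference depends on the pseudocount, with -4.34 to -1.5 over the settings tried. The Rgs10 call was lost with a pseudocount of 0.1 FPKM. Bglap was listed at 0 in both control P7 libraries and Tmsb15b2 at under 0.01 FPKM there. Their differences of -3.01 and -3.18 thus depend on the pseudocount, and both may share reads with close copies. For Tmsb15b2 the limma adjusted p was 0.0265. Bglap passed the filter only through the knockout P7 libraries, at 18.3 and 9.17 FPKM, so it had to differ and its call is a description.

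**Figure D5:**
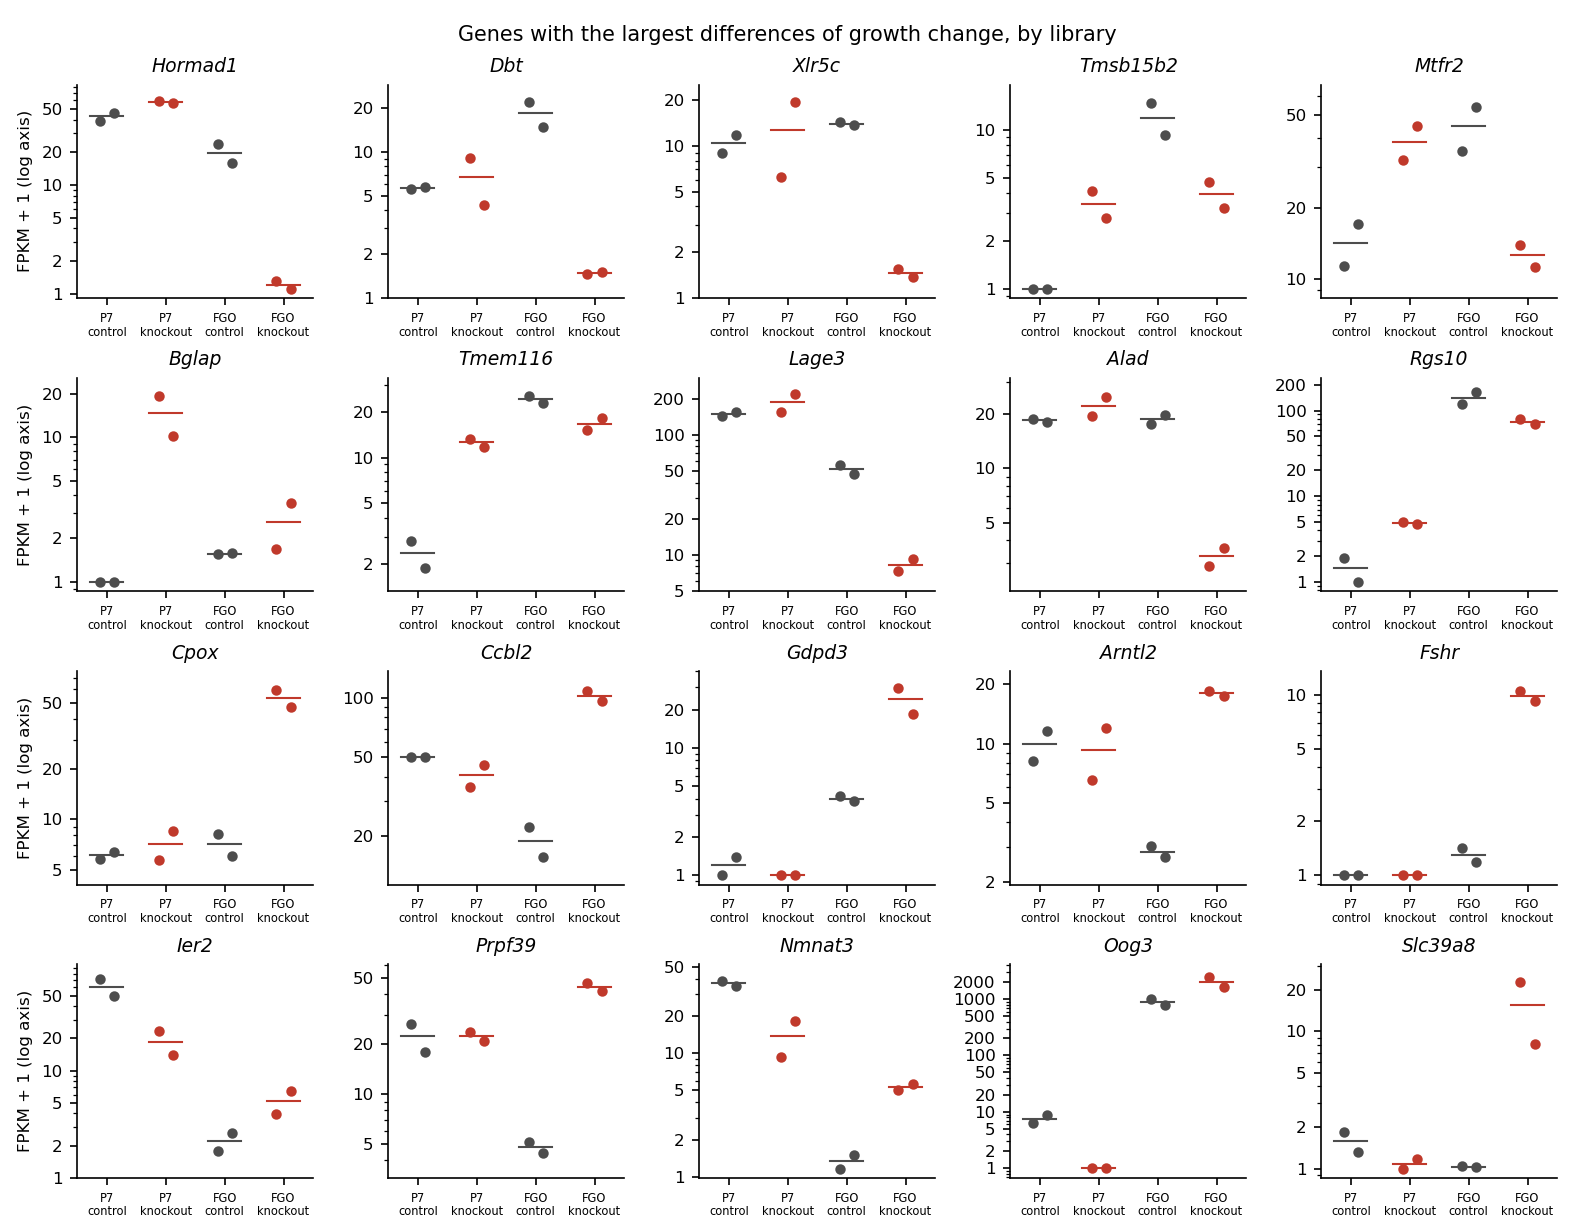
FPKM + 1 on a log axis in each library for the 10 genes with the largest differences of growth change below the control (upper rows) and the 10 above it (lower rows), with control oocytes in grey and Setd2 knockout oocytes in red at P7 and full-grown (FGO), and a line at the mean. Panels such as that of Prpf39 show P7 groups near each other and full-grown groups apart, at 45.9 and 40.8 against 4.15 and 3.38 FPKM, while Bglap and Tmem116 differ mainly at P7.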

How the data were processed

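The authors deposited FPKM values per gene symbol. Per the submitters' processing notes, the tools were Cufflinks 2.0.2 and TopHat2 2.0.11 and the build was mm9, with no role stated for any. The P7 table and the table of 12 libraries that holds the full-grown oocytes were joined on 22592 symbols. Kept were the 12312 genes that reached 1 FPKM in 2 or more of the 8 oocyte libraries. The model of log2(FPKM + 1), by limma 3.58.1 under R 4.3.3, has a mean per group, a variance trend and Benjamini-Hochberg adjustment over all genes tested, called at 0.05. The 4 groups share their spread. Growth changes are differences of group means of log2 values.

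The members and lists were chosen with earlier results of these data known. Named genes are Setd2, the 10 largest called differences each way with at least 5 FPKM in the highest group, up to 6 called members of each stress list, or the 2 with the smallest p where none was called, up to 3 called members of each growth list, the 8 largest knockout growth changes each way with at least 20 FPKM, and 8 genes that mark the stage. Symbols without an established name were left out.

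Depth was estimated from the step between low FPKM values of 2835 single-transcript genes with GENCODE vM21 lengths, which is another annotation than the authors', so it is approximate. Whether equal replicate numbers mark pairs was checked: deviations of same-numbered libraries from their group means correlated at 0.04 at P7 and 0.19 in full-grown oocytes, and the main comparison has no block. Tested on simulated data of 11916 genes, the test of the difference recovered 15% of 2-fold and 82% of 4-fold changes, with 4 false among 101 calls. The 200 changed genes were drawn from those of higher expression and changed in the full-grown knockout only. The noise was independent between libraries, so these rates do not cover genes of low expression or spread shared between libraries. Promoter windows are from RefSeq on GRCm38.p6, and 9075 of the genes tested matched.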

Additional observations from a re-analysis of the deposited data

Results flagged for a closer look

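For 42 named genes the change during growth differed between knockout and control by the test of the difference itself (limma, adjusted over 12312 genes). Values are knockout minus control growth change in log2(FPKM + 1), relative to the median of all genes. Slc39a8 and Fshr passed the filter on low values only through the full-grown knockout, where they are high. Bglap passed it only through the P7 knockout, where it is high. These genes had to differ, so their calls are descriptions.

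Of the stress genes, Slc39a8 (4.42), Ier2 (3.12) and Dnajb9 (1.80) lay above, and Hspa4l (-1.93), Gabarap (-1.70), Gsta4 (-1.53), Gsto1 (-1.44), Ccs (-1.39), Ftl1 (-1.36), Creld2 (-1.14) and Park7 (-0.69) below. Of the meiotic genes, Hormad1 (-4.31), Tex15 (-2.26), Sycp3 (-1.65) and Smc1b (-0.94) lay below. Of the cyclins, Ccne2 (1.91) and Ccnb1 (1.34) lay above and Ccnb2 (-0.98) below. The maternal genes Zar1 (-1.52) and Khdc3 (-1.09), the complex I genes Ndufs6 (-1.22), Ndufa7 (-0.97) and Ndufs7 (-0.89), Rps25 (-1.14) and Setmar (-1.77) lay below.

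The other large differences above were of Oog3 (4.23), Nmnat3 (3.66), Prpf39 (3.35), Fshr (3.09), Arntl2 (2.97), Gdpd3 (2.95), Ccbl2 (2.93) and Cpox (2.89). Those below were of Dbt (-3.59), Xlr5c (-3.18), Tmsb15b2 (-3.18), Mtfr2 (-3.08), Bglap (-3.01), Tmem116 (-2.83), Lage3 (-2.80), Alad (-2.63) and Rgs10 (-2.57).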

How the results depend on the processing

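The 42 named genes that were called kept their direction in every one of the 18 alternative settings in which they were measured, and their calls did not hold. As they were called on these same libraries, the kept direction adds no support. Against 94 genes above and 187 below, limma called 58 above with a pseudocount of 0.1 FPKM, 144 and 363 with a filter at 5 FPKM, 109 below without a variance trend, 290 above after median-ratio rescaling, 203 above after quantile normalization and 124 below with the spread shared by 16 libraries. With a replicate block it called 1 above and 2 below (3040 at an unadjusted p under 0.05), Hormad1 and Oog3 among them, although the numbers do not show the libraries to be pairs. Leaving out each library in turn gave 0 to 46 genes above and 0 to 65 below (1777 to 2890 at an unadjusted p under 0.05), where each such fit has fewer samples. The stress calls, 3 above and 8 below, became 0 above without a filter, 13 below with a filter at 5 FPKM, 5 below without a trend, 5 above after median-ratio rescaling, 1 and 2 with the spread of 16 libraries, 0 and 0 with the replicate block, and 0 to 2 above and 0 to 3 below with a library left out. The 1879 risen and 1255 fallen genes of the knockout's growth were 2644 and 2366 with a pseudocount of 0.1 FPKM, 773 and 561 with 5 FPKM, and 1251 and 2148 without a filter. The cause of these shifts was not tested. Genes below 1 FPKM rest on few fragments, and 2-fold differences were mostly beyond the reach of this design.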

Other observations

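Heme synthesis, looked at after the values of Cpox and Alad were seen, is described without weight on its counts, since the choice fixed 2 of the calls. Of the 7 genes described, 2 were called above and 1 below, where 2.28% of all genes were called. Alas1, the first and rate-limiting step, went from 13.4 and 13.9 FPKM to 103 and 83.8 in the knockout and from 21.8 and 19.1 to 61 and 46.6 in controls (difference 1.50, limma adjusted p = 0.0475). Alad, the next step, ended at 1.89 and 2.61 FPKM in the knockout against 16.7 and 18.8, and Cpox, late in the pathway, at 58.8 and 46.3 against 7.15 and 5. Uros, Urod and Ppox had differences of -0.09, -0.24 and 0.28, and Fech, which inserts iron, ended at 3.24 and 5.1 FPKM against 8.34 and 10.3 without passing (limma adjusted p = 0.215).

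Of 21 markers of granulosa cells 7 passed the filter, with a median difference of -0.75. Limma called 1 above and 1 below, where 2.28% of all genes were called. Inha, an inhibin subunit, was called below, at 14.8 and 15.1 FPKM in full-grown controls and 0.816 and 0.519 in the knockout (difference -2.43). Inha passed the filter only through the full-grown controls and Fshr, called above, only through the full-grown knockout. Both thus had to differ, and their calls are descriptions. Cyp11a1 and Gja1 also passed the filter only through the full-grown controls, and neither was called. Cyp11a1, of steroid synthesis, was at 3.2 and 2.37 FPKM in full-grown controls and 0.293 and 0.323 in the knockout (difference -1.16, limma adjusted p = 0.0684). The gap junction gene Gja1 was also lower in the full-grown knockout, at 0.105 and 0.0249 FPKM (difference -0.80, limma adjusted p = 0.141). Nr5a2 lay the other way, at 7.02 and 7.08 FPKM in the knockout and 3.89 and 3.52 in controls (difference 0.97, limma adjusted p = 0.158), and Cyp19a1, the aromatase, was at 15.4 and 13.6 against 23.4 and 19.6 without passing (limma adjusted p = 0.347). The keratin Krt8 was at 16.9 FPKM in knockout P7 replicate 1 and at 0 in replicate 2. Nr2f2, a marker of stroma, was at 3.62 and 2.02 FPKM in control P7 oocytes and at 0.257 or less in the 6 other libraries, so it passed the filter only through the control P7 libraries.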
